A study of Mus musculus with 6 samples.

Results

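The mouse Hox genes lie in 4 chromosomal clusters, A on chromosome 6, B on chromosome 11, C on chromosome 15 and D on chromosome 2. Here 38 of them were followed by cluster and by level in bulk RNA-seq of mouse gastruloids, out of 35565 gene identifiers measured. The rule lists the members by name, 10 from cluster A, 10 from B, 9 from C and 9 from D, and all sums and counts cover these 38 genes only. Gastruloids are aggregates of embryonic stem cells (ESCs) that break symmetry, elongate and form tissues of the trunk and tail. Both groups came from the mouse ESC line TBV2 129/SvP, were exposed to the WNT pathway activator CHIR99021 as aggregates and were collected on day 5. There were 3 libraries of Control (NT) gastruloids, described in the labels as WT and in the study's methods as non-targeting cells, and 3 libraries of KD-1, 1 of the study's clones with stable silencing of the long noncoding RNA T-UCstem1. Each group was a single line, so clonal differences cannot be told apart from the silencing. How far T-UCstem1 was reduced was not analysed here.

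HOX proteins are homeodomain transcription factors that give cells their position along the head-to-tail axis. Within a cluster the genes are numbered from 1 to 13 by paralog group, which is their order along the chromosome. Genes with low numbers are switched on first and are expressed up to the hindbrain and neck, whereas genes with high numbers are switched on later and closer to the tail. Genes with the same number in different clusters arose by duplication of an ancestral cluster and have overlapping functions. In the elongating embryo the clusters are opened by WNT and FGF signals through CDX factors and by retinoic acid, and are kept silent before that by Polycomb complexes. HOX proteins bind DNA together with PBX, MEIS and PKNOX cofactors.

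The sequences just upstream of a RefSeq start of 3 members were taken to show what these start regions look like. The regulators and cofactors of Hox genes were measured in the same libraries. The windows are the 250 bases before the RefSeq start, which the source table gives on GRCm38.p6 and which matched GRCm39 once each without overlapping an annotated exon. That of Hoxb8 lay at chr11:96172481-96172730 on the plus strand, that of Hoxd4 at chr2:74552072-74552321 on the plus strand and that of Hoxa2 at chr6:52141812-52142061 on the minus strand (GRCm39). The windows of Hoxb8 and Hoxa2 adjoin the annotated start of the gene. That of Hoxd4 lies inside the annotated spans of Hoxd4 and Hoxd3, before a RefSeq start within them. Capitals mark TTTATG, a sequence that CDX factors bind, and TGATNNAT, the shared site of PBX and HOX proteins, on either strand.
Hoxb8: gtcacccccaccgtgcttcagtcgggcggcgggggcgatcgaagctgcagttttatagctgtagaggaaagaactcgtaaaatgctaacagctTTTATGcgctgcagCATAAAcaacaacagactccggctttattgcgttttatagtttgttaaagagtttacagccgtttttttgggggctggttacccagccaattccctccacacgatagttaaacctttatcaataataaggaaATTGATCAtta
Hoxd4: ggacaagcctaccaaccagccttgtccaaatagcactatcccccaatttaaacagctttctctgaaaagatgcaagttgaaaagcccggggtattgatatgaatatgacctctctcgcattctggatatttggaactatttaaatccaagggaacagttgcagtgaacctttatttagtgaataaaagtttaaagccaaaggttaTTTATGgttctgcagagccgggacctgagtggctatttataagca
Hoxa2: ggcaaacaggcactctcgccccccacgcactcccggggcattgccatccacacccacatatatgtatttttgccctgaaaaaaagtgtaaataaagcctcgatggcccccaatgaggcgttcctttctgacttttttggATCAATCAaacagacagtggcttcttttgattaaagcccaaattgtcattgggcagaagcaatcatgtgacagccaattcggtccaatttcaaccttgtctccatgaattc

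In Hoxb8, TTTATG began 157 and 143 bases before the start and TGATNNAT 11 bases before it. Hoxd4 held 1 TTTATG, 45 bases before the start, and Hoxa2 held 1 TGATNNAT, 111 bases before the start. RefSeq windows of 300 bases, 250 before the start and 50 after it, were matched for 22 of the 38 members, in 24 windows. TTTATG was found in 20.8% of these Hox windows and in 11.9% of all 32851 windows, and TGATNNAT in 16.7% and 8.85%. Both strands were searched and the motifs could overlap each other. The 5 members with TTTATG were Hoxa7, Hoxb8, Hoxd3, Hoxd4 and Hoxd11, of which 3 were called lower in KD-1 by the test described next, compared with 11 of the 22 members with a window. The 4 members with TGATNNAT were Hoxa2, Hoxb1, Hoxb8 and Hoxd11, and 2 of them were called lower. A match of letters describes the sequence and says nothing of binding.

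Library totals ranged from 20982249 to 56674906 counts in Control (NT) and from 41180012 to 85561026 counts in KD-1, and each library is named below by its depth within its group (lowest, middle, highest). A count of 0, taking 3 counts as the limit, allows a normalized level (CPM, counts scaled to the library size) of up to 0.145 in the shallowest library and of up to 0.0345 in the deepest, which covers counting error only. The Control library of middle depth differed most from the others of its group, with a chi-square per degree of freedom of 36.3 and 36.5 against 15.3 between the other two, and 4.85 to 11.05 within KD-1. It gave the highest Control value of the summed level in all 4 clusters. The cluster sums and the calls lost without it are given both ways, whereas sums by paralog number are given only with it. Somite markers were present in Control gastruloids, while those of heart and lateral mesoderm were low, with a summed level of at most 4.003 CPM. Nothing in the labels says whether the 3 libraries of a group came from separate cultures, so p-values measure only the spread between these samples.

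Of the 38 members, 31 passed the filter on low counts and were tested. A gene was called at a Benjamini-Hochberg adjusted p under 0.05 in edgeR's quasi-likelihood test, with a fold change over 1.5 in either direction. In KD-1, 16 members were lower, where 18.1% of all 15110 genes tested were called lower. 1 member, Hoxb6, was higher, where 19.7% of all genes tested were called higher. The other 14 were not called. In these bulk libraries, fewer cells of a type cannot be told apart from less RNA per cell. The libraries of the groups did not overlap for 20 members that were lower in KD-1 and for 6 that were higher, beside 35.3% of all genes tested in each direction. The median log2 fold change of the 31 tested members was -0.63, and that of all genes tested was -0.01. The 7 members that did not pass the filter were Hoxa13, Hoxb13, Hoxc11, Hoxc12, Hoxd11, Hoxd12 and Hoxd13.

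The calls are given here by cluster. In cluster D, 5 of 6 tested members were lower, with a median log2 fold change of -1.01. In cluster B, 7 of 9 were lower and 1 was higher, with a median of -0.93. Cluster A had 3 of 9 lower and a median of -0.42, and cluster C had 1 of 7 lower and a median of 0.18. Whether the shares differ between clusters was not tested, since genes of a cluster are not independent. Without the Control library of middle depth, 14 members were lower, 2 in A, 6 in B, 1 in C and 5 in D.

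**Figure D1:**
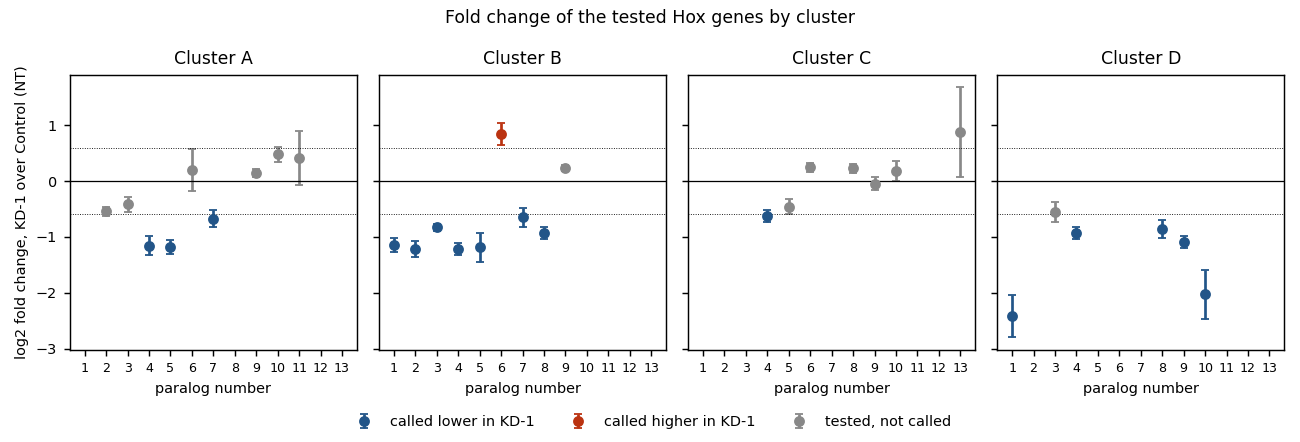
Log2 fold change of KD-1 over Control (NT) for the 31 tested Hox genes, by paralog number on the x axis with 1 panel per cluster, bars showing the standard error and dotted lines the 1.5-fold threshold. Members of cluster D lie below 0 at every number tested, whereas in clusters A and C most members numbered 6 and above lie at or above 0.

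Absolute level gave a different order from fold change. To compare genes with each other, the normalized CPM was divided by the length in kb of the union of the gene's exons, and this level is called CPM per kb. Cluster B carried the largest part of Hox RNA in both groups. In Control gastruloids its members summed to 99.0, 121.9 and 102.2 CPM per kb in the libraries of lowest, middle and highest depth, and in KD-1 to 87.0, 84.8 and 84.3. All KD-1 libraries were below all Control libraries, and the ratio of the means was 0.793. Without the Control library of middle depth the ratio was 0.848.

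Cluster A summed to 32.4, 35.4 and 31.0 CPM per kb in Control and to 24.2, 24.3 and 23.4 in KD-1, a ratio of 0.726 with no overlap. Cluster D had the lowest sums and the lowest ratio, with 16.0, 19.9 and 17.7 CPM per kb in Control, 8.67, 9.14 and 9.43 in KD-1 and a ratio of 0.508 with no overlap. Cluster C summed to 35.2, 39.8 and 34.0 CPM per kb in Control and to 38.5, 37.5 and 35.7 in KD-1. Here the libraries of the groups overlapped, and the ratio of 1.03 lay within their spread. Over all 38 members the sum was 194.9 ± 19.2 CPM per kb in Control and 155.6 ± 2.75 in KD-1 (SD, n = 3), a ratio of 0.799. Without the Control library of middle depth the ratios were 0.755 in A, 1.08 in C, 0.539 in D and 0.847 over all members. These sums are descriptions of the members and were not tested.

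The share of the summed Hox level was higher in KD-1 for cluster C and lower for cluster D. Cluster C made up 18.7% ± 0.54 of the sum in Control and 23.9% ± 0.49 in KD-1 (SD, n = 3). Cluster D made up 9.17% ± 0.39 and 5.84% ± 0.35, and cluster A 16.9% ± 0.73 and 15.4% ± 0.18. For these 3 clusters the libraries of the groups did not overlap. These shares use exon length and were not computed with another length. With coding length, or without length scaling, the ratio of cluster A was closer to 1. Its lower share was therefore not shown to hold there. The share of cluster B was 55.2% ± 0.99 and 54.9% ± 0.37, which overlapped. The sums of cluster B and of the family depended on 1 gene, Hoxb9, which made up 21.5% ± 1.15 of the summed level of all members in Control and 31.5% ± 0.30 in KD-1. Without Hoxb9, a choice made after seeing the data, the ratio of KD-1 over Control was 0.551 for cluster B and 0.696 for all members.

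**Figure D2:**
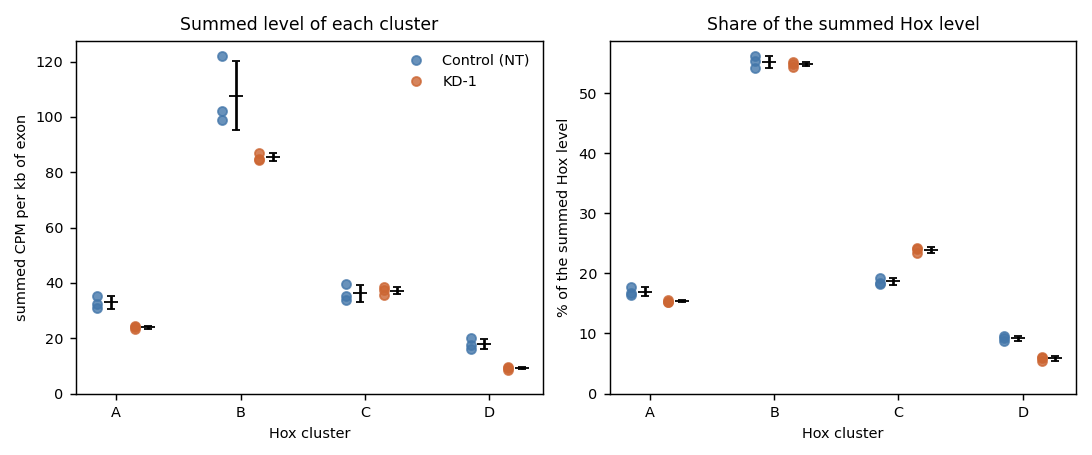
Summed CPM per kb of each Hox cluster (left) and its percentage of the summed level of all 38 members (right), with 1 point per library and the mean ± SD of the 3 libraries of each group beside them. The KD-1 points lie below the Control (NT) points in clusters A, B and D on the left, and on the right cluster C is higher and cluster D lower in KD-1.

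Cluster B held the member with the highest level and 7 of the 16 members called lower. Hoxb9 (ENSMUSG00000020875, chr11:96162150-96167421, GRCm39), a trunk gene with a role in patterning of the thoracic vertebrae, was the highest of all 38 members. Its level was 40.5, 43.9 and 41.1 CPM per kb in the Control libraries of lowest, middle and highest depth and 50.45, 48.9 and 47.8 in those of KD-1. Every KD-1 library was above every Control library, but the change was small, with a log2 fold change of 0.23 ± 0.06 (SE, edgeR adjusted p = 0.0064), and it did not reach the 1.5-fold threshold. Hoxb8 (ENSMUSG00000056648, chr11:96172731-96176160), the next Hox gene of the cluster, which acts in the trunk spinal cord and in blood progenitors, was called lower. Its level was 14.6, 19.3 and 15.5 CPM per kb in Control and 8.93, 8.04 and 8.98 in KD-1, with a log2 fold change of -0.93 ± 0.11 (edgeR adjusted p = 1.1e-04). The KD-1 values of Hoxb8 were all below the lowest Control value, and in absolute terms its difference between groups was -7.83 CPM per kb, beside 7.24 for Hoxb9.

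The genes numbered 1 to 5 of cluster B were all lower. Hoxb4 (ENSMUSG00000038692, chr11:96209093-96212464), known for its role in blood stem cell expansion and the cervical vertebrae, showed the largest fall among the called members of the cluster. Its level was 7.61, 9.56 and 9.10 CPM per kb in Control and 3.80, 4.12 and 3.46 in KD-1, with a log2 fold change of -1.22 ± 0.11 (edgeR adjusted p = 2.3e-05). Hoxb2, which acts in the hindbrain, fell by 1.22 on the log2 scale as well, so that the order of these members was not resolved. Hoxb1, which specifies the facial motor territory of the hindbrain, went from 11.5 ± 1.91 to 5.26 ± 0.41 CPM per kb (SD, n = 3, log2 fold change -1.14 ± 0.12, edgeR adjusted p = 6.7e-05). Hoxb3 and Hoxb5 had log2 fold changes of -0.83 and -1.18. The antisense gene Hoxb3os covers 29.7% of the exon length of Hoxb2 and 51.5% of that of Hoxb3, with the limit described next for Hoxb6. Together the 5 genes went from 37.0 ± 4.82 to 17.2 ± 0.25 CPM per kb, a ratio of 0.464.

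Hoxb6 (ENSMUSG00000000690, chr11:96183280-96192395), a trunk gene expressed in lateral mesoderm and spinal cord, was the only one of the 31 tested members called higher. The Control libraries gave 1.60, 3.00 and 2.02 CPM per kb and the KD-1 libraries 3.86, 4.005 and 4.08, a log2 fold change of 0.84 ± 0.20 (edgeR adjusted p = 0.0054). The groups did not overlap, and the Control library of middle depth was the highest of its group, without which the log2 fold change was 1.096. Of the exon length of Hoxb6, 30.8% is also covered by the antisense gene Hoxb5os, and whether the quantification used strand was not stated, so that reads of this pair may not be told apart. Hoxb5 and Hoxb7, on either side of it, were both called lower. Hoxb7 went from 10.1 ± 2.64 to 6.44 ± 0.05 CPM per kb (SD, n = 3) with a log2 fold change of -0.65, which became -0.42 and lost its call without the Control library of middle depth. Hoxb13, the last gene of the cluster, was at 8 counts or fewer in Control and at 12 or fewer in KD-1 and was not tested.

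**Figure D3:**
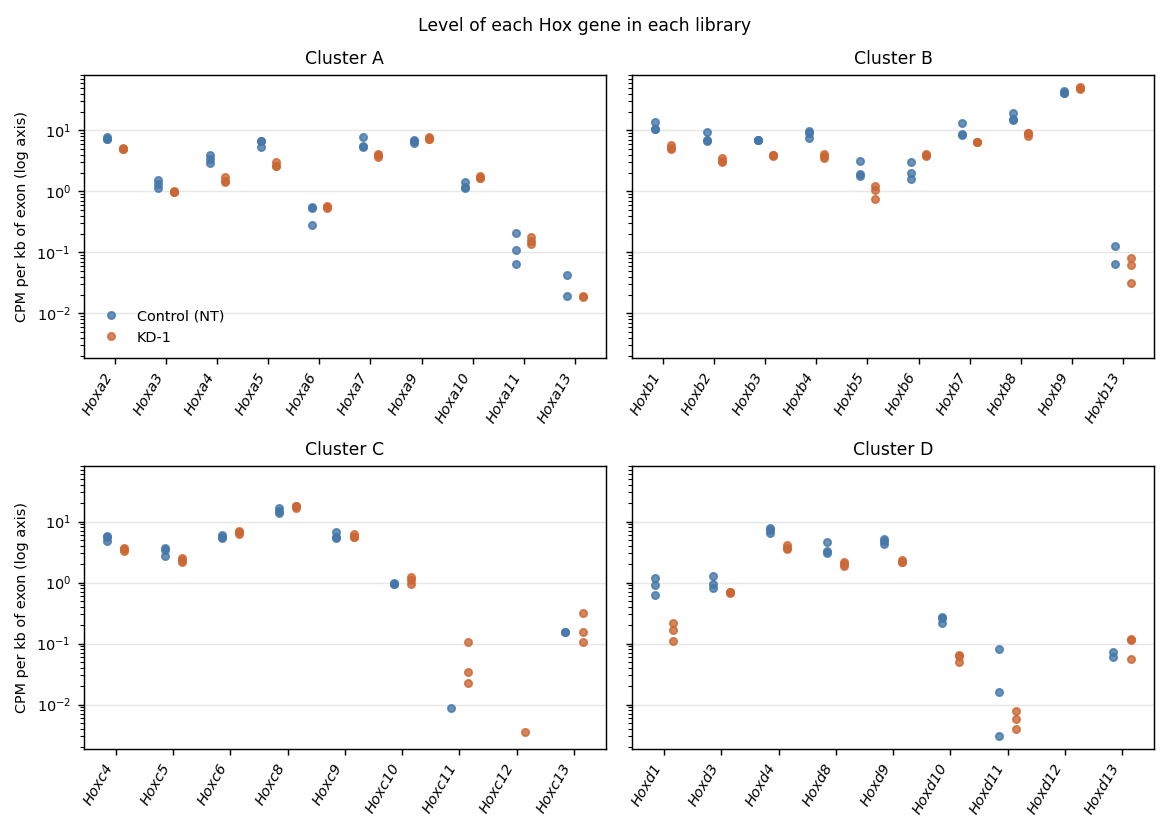
Level of each of the 38 Hox genes in CPM per kb on a log axis, with 1 point per library, ordered along the x axis by paralog number within each cluster. Hoxb9 is the highest gene in both groups, libraries at 0 counts are not drawn, and Hoxd12 has no point because it was at 0 in all 6 libraries.

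In cluster A the members called lower were Hoxa4, Hoxa5 and Hoxa7, and none of the 3 tested genes from number 9 upward had a negative fold change. Hoxa9 (ENSMUSG00000038227, chr6:52200080-52208069), which acts in the posterior trunk and in blood progenitors, was the highest member over both groups. Its level was 6.26, 6.80 and 6.81 CPM per kb in Control and 7.15, 7.76 and 7.09 in KD-1. All KD-1 values were above the Control values, but the test did not call the gene, with a log2 fold change of 0.14 and a 95% interval from -0.01 to 0.30 (edgeR adjusted p = 0.099). Hoxa2 (ENSMUSG00000014704, chr6:52138599-52141811), the selector gene of the neural crest of the hyoid arch, was at 7.70, 7.22 and 7.11 CPM per kb in Control and at 5.21, 5.02 and 4.90 in KD-1. Its log2 fold change of -0.54 ± 0.08 (edgeR adjusted p = 3.1e-04) was clear of the spread but short of the 1.5-fold threshold.

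Hoxa5 (ENSMUSG00000038253, chr6:52178734-52181567), required for formation of the lung and of the neck and upper thoracic vertebrae, had the largest fall in cluster A. The Control libraries gave 6.63, 6.77 and 5.37 CPM per kb and the KD-1 libraries 3.00, 2.65 and 2.59, a log2 fold change of -1.19 ± 0.13 (edgeR adjusted p = 6.7e-05). Hoxa4, its neighbour, fell to a like extent, from 3.41 ± 0.51 to 1.53 ± 0.15 CPM per kb (SD, n = 3). Hoxa7, another trunk gene, had a log2 fold change of -0.67, and without the Control library of middle depth it was -0.48 and the call was lost. Antisense genes cover 16.0% of the exon length of Hoxa4 and 20.3% of that of Hoxa7. They also cover 14.5% of that of Hoxa2, 22.2% of Hoxa3, 9.36% of Hoxa9, 19.0% of Hoxa10 and 43.6% of Hoxa11. On the same strand, Hoxa2 shares 10.4% and Hoxa3 7.0% of its exon length with Gm28308. The limit given for Hoxb6 applies to these genes too. Hoxa3, which acts in the thymus and throat, had a log2 fold change of -0.42 and was not called. Hoxa10, expressed in the lumbar region and uterus, had a log2 fold change of 0.48 ± 0.13 (edgeR adjusted p = 0.013) and was not called, with no overlap between groups. Hoxa6 and Hoxa11 lay under 1 CPM per kb in every library with overlapping groups, and Hoxa13 was at 6 counts or fewer in each library.

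Cluster C was the cluster whose summed level overlapped between the groups. Hoxc8 (ENSMUSG00000001657, chr15:102898851-102902543), which patterns thoracic vertebrae and brachial motor neurons, was its highest member and, by the mean over both groups, came second of all 38, although in Control it was below Hoxb8. It was measured at 14.8, 16.6 and 13.66 CPM per kb in Control and at 17.8, 18.1 and 16.8 in KD-1. The KD-1 libraries were all above the Control libraries, with a log2 fold change of 0.23 ± 0.08 (edgeR adjusted p = 0.035) that was short of the threshold. Hoxc6 (ENSMUSG00000001661, chr15:102906689-102920315), which acts at the level of the forelimb and thorax, was at 5.66, 6.02 and 5.45 CPM per kb in Control and at 7.11, 6.86 and 6.35 in KD-1. It did not overlap either and had a log2 fold change of 0.25 ± 0.08 (edgeR adjusted p = 0.030), also not called.

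Hoxc4 (ENSMUSG00000075394, chr15:102927366-102945278), expressed up to the neck, was the only tested member of cluster C that was called lower. Values were 4.71, 5.76 and 5.64 CPM per kb in Control and 3.67, 3.54 and 3.26 in KD-1, with a log2 fold change of -0.63 ± 0.11 (edgeR adjusted p = 8.6e-04). The groups did not overlap, but the call depended on the threshold, since without the KD-1 library of highest depth the log2 fold change was -0.57 and the gene was not called. Hoxc5 had a log2 fold change of -0.46 and was not called. For Hoxc9, which acts in thoracic motor neurons, the groups overlapped at 5.92 ± 0.80 and 5.74 ± 0.40 CPM per kb (SD, n = 3), and the 95% interval of the log2 fold change went from -0.30 to 0.21. Hoxc10, a lumbar gene, lay near 1 CPM per kb in every library. Hoxc13 was tested but near the detection limit, with a standard error of 0.81 on its log2 fold change of 0.87. Hoxc11 was at 0, 0 and 1 counts in Control and at 9, 2 and 6 counts in KD-1, and a single count of Hoxc12 was found, in the deepest KD-1 library.

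In cluster D every tested member had a negative fold change, including those with high numbers. Hoxd4 (ENSMUSG00000101174, chr2:74542273-74559523), which acts in the hindbrain and neck, was the highest member. Values were 6.52, 7.90 and 7.25 CPM per kb in Control and 3.51, 3.73 and 4.12 in KD-1, with a log2 fold change of -0.93 ± 0.10 (edgeR adjusted p = 6.4e-05). Of its exon length, 52.0% is shared on the same strand with Hoxd3 and Gm28230, so that the division of reads among them is uncertain. Hoxd3 itself had a log2 fold change of -0.55 and was not called, but passed the threshold at -0.59 without the Control library of lowest depth and at -0.72 without that of highest depth. Without that of middle depth it was -0.32 and stayed uncalled. Gm28230 was also called lower, at -1.31. Without all members that share more than 5% of their exon length on the same strand, a choice made after seeing the data, the summed ratio of cluster D was 0.485.

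Hoxd9 (ENSMUSG00000043342, chr2:74528008-74530552), which acts in the posterior trunk and limb, shared no exon with another gene. It was measured at 4.30, 5.14 and 4.80 CPM per kb in Control and at 2.21, 2.32 and 2.19 in KD-1, with a log2 fold change of -1.09 ± 0.11 (edgeR adjusted p = 4.6e-05). Every KD-1 value was under the lowest Control value. Hoxd8, the next gene along, went from 3.65 ± 0.79 to 2.03 ± 0.14 CPM per kb (SD, n = 3) with a log2 fold change of -0.85, and 15.05% of its exon length is covered by an antisense gene. Hoxd1 (ENSMUSG00000042448, chr2:74593324-74595486), known from sensory neurons, showed the largest fall of all tested members. Its level was 0.907, 0.620 and 1.19 CPM per kb in Control and 0.167, 0.111 and 0.216 in KD-1, with a log2 fold change of -2.42 ± 0.37 (edgeR adjusted p = 5.3e-04). Hoxd10, beyond Hoxd9 in the cluster, fell by 2.03 on the log2 scale. Both are low genes, and neither had at least 10 counts in every library. Hoxd11 and Hoxd13 were at 16 and 26 counts or fewer, Hoxd12 was at 0 in all libraries, and none of them was tested.

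**Figure D4:**
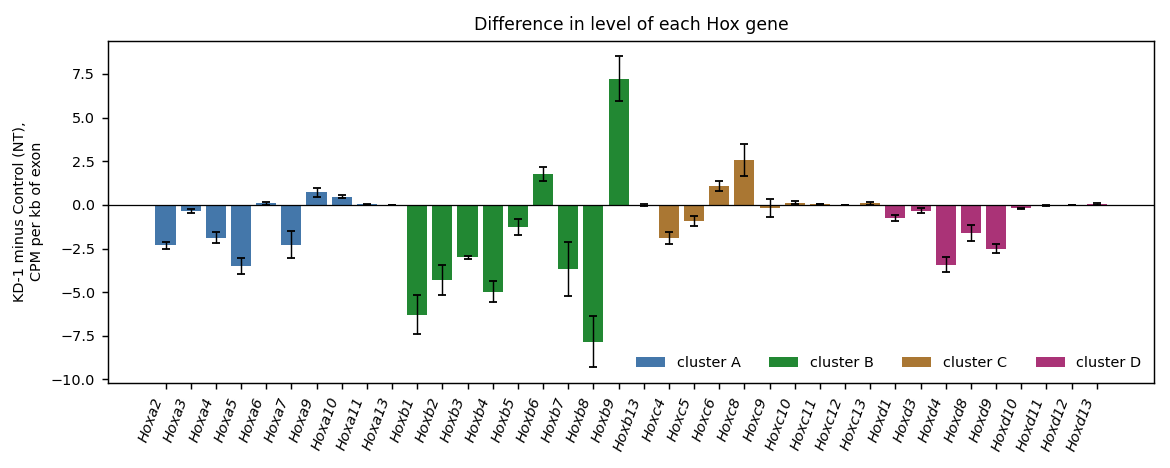
Difference in mean level between KD-1 and Control (NT) in CPM per kb for each of the 38 Hox genes, coloured by cluster, with bars for the standard error of the difference (n = 3 per group). Hoxb9 has the largest gain at 7.24 and Hoxb8 the largest loss at -7.83, while the large fold changes of Hoxd1 and Hoxd10 correspond to differences under 1 CPM per kb.

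Genes of the same paralog number could be compared across clusters. In paralog group 9, the share of Hoxd9 in the summed level of the group went from 8.02% ± 0.38 to 3.48% ± 0.12 (SD, n = 3). The log2 ratio of Hoxb9 to Hoxd9 was higher in KD-1 by 1.31 ± 0.06 (SE), that of Hoxa9 to Hoxd9 by 1.23 ± 0.04 and that of Hoxc9 to Hoxd9 by 1.04 ± 0.11. The log2 ratio of Hoxa9 to Hoxb9 differed by -0.08 ± 0.06 with overlapping libraries. In group 8, Hoxb8 and Hoxc8 had nearly equal levels in Control and separated in KD-1, where Hoxb8 went from 46.8% ± 1.54 to 30.6% ± 1.99 of the group and Hoxc8 from 42.8% ± 2.33 to 62.2% ± 1.65. Their log2 ratio differed by -1.15 ± 0.10, whereas the ratio of Hoxb8 to Hoxd8 differed by -0.09 ± 0.12 with overlapping libraries.

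In group 10, Hoxd10 was too low for such ratios, at 10, 17 and 22 counts in Control and at 5, 4 and 10 in KD-1. In group 4, the log2 ratio of Hoxa4 to Hoxb4 differed by 0.06 ± 0.15 with overlapping libraries, and that of Hoxb4 to Hoxc4 by -0.59 ± 0.05 without overlap. The ratio of Hoxa7 to Hoxb7 differed by -0.03 ± 0.06 and overlapped as well. In group 6, the log2 ratio of Hoxb6 to Hoxc6 was higher by 0.65 ± 0.25 in KD-1. For the 30 pairs compared, the smallest p that an exact two-sided permutation test of 3 against 3 libraries can give is 0.1 (0.15 after adjustment over the pairs), so no pair could pass a threshold of 0.05. The pairs share genes and are not independent.

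Summed by position within each cluster, the low-numbered genes were lower in KD-1 in all 4 clusters. For members numbered 1 to 5, the ratio of the summed level in KD-1 over Control was 0.562 in cluster A, 0.464 in B, 0.678 in C and 0.508 in D, with no overlap between groups in any of them. For members numbered 6 to 8, it was 0.669 in A, 0.662 in B and 0.555 in D, where Hoxd8 stands alone, and 1.18 in C. For members numbered 9 to 13, it was 1.15 in A, 1.17 in B, 1.01 in C and 0.474 in D. Several of these sums were mostly 1 gene. In the Control means for numbers 9 to 13, Hoxa9 gave 6.62 of 8.01 CPM per kb in A. Hoxb9 gave 41.83 of 41.90 in B and Hoxd9 4.75 of 5.07 in D. For numbers 6 to 8 in A, Hoxa7 gave 6.16 of 6.62. Neither Hoxa9 nor Hoxb9 was called. The groups overlapped in cluster C for numbers 9 to 13 and not in the other sets. For numbers 6 to 8 the ratio was above 1 in cluster C and below 1 in the other 3. In these sets the Control library of middle depth was the highest of its group. It gave 8.24 CPM per kb in A, beside 5.80 and 5.81 in the other Control libraries, and 35.5 in B, beside 24.7 and 26.2. The ratios by number are given only with this library. Over the 4 clusters, members numbered 1 to 5 went from 73.1 ± 6.80 to 38.0 ± 0.46 CPM per kb (SD, n = 3) and members numbered 9 to 13 from 62.0 ± 2.82 to 67.8 ± 1.58. The direction of the last of these rested on Hoxb9. Without it, a choice made after seeing the data, they went from 20.1 ± 1.04 to 18.7 ± 0.35. That lower sum holds for exon length only, which is 5580 bases for Hoxa9 and 2199 for Hoxd9. Other lengths were not tried without Hoxb9.

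Regulators of Hox genes were measured as a list of 21 genes, all tested. Of these, 9 were lower and 3 were higher in KD-1, with a median log2 fold change of -0.31. For this list and the lists of genes below, 18.1% of all genes tested were called lower and 19.7% higher. Levels here are in CPM and are not divided by length. Aldh1a2, the enzyme that makes retinoic acid in the trunk mesoderm, was at 39.2, 46.0 and 39.0 CPM in Control and at 1.05, 1.82 and 1.89 in KD-1, with a log2 fold change of -4.67 ± 0.18 (edgeR adjusted p = 1.6e-07). The retinoic acid receptors Rarb and Rarg and the retinoic acid-degrading enzyme Cyp26a1 were lower, with log2 fold changes of -2.76, -1.24 and -3.83, while Rara had a value of 0.07 and was not called. Cdx1, a caudal factor, was at 5.11, 6.22 and 5.36 CPM in Control and at 0.286, 0.391 and 0.242 in KD-1, with a log2 fold change of -4.22 ± 0.23 (edgeR adjusted p = 1.1e-06). Cdx2 had a log2 fold change of -1.25, whereas Cdx4, under 1 CPM in every library, was not called.

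Gdf11, the ligand that times the trunk-to-tail transition, had a log2 fold change of -0.62 and was called lower, and the tail bud factor T was not called, at -0.31. Among Polycomb genes, Bmi1 and Cbx2 of the PRC1 complex were lower, at -0.97 and -0.71, and Suz12 of PRC2 was higher, at 0.84. Ezh2, Eed and Pcgf2 were not called, at 0.13, 0.22 and -0.42, but their groups did not overlap. Their edgeR adjusted p was 0.043, 0.0037 and 0.0093, so that they missed only the 1.5-fold threshold. The activating methyltransferase Kmt2a was not called, at 0.06 with overlapping groups. The hindbrain factors Gbx2 and Egr2 were higher at 0.98 and 2.02, the last of these at under 1 CPM in every library. The RNA-binding proteins Lin28a and Lin28b were not called. Lin28a was at 0.50 with no overlap between groups (edgeR adjusted p = 4.9e-05), short of the threshold, and Lin28b at -0.10 with overlap.

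Of 8 genes for DNA-binding partners of HOX proteins, all tested, 4 were lower and none was called higher, with a median log2 fold change of -0.70. Meis2 was at 189.2, 208.2 and 188.5 CPM in Control and at 71.8, 72.0 and 76.3 in KD-1, with a log2 fold change of -1.41 ± 0.06 (edgeR adjusted p = 3.9e-07). Pknox2, Pbx2 and Meis1 were lower at -2.22, -1.78 and -0.87, with no overlap between groups. Pbx3 and Pknox1 were at 0.41 and 0.38, also without overlap (edgeR adjusted p = 0.003 and 0.0025), but short of the 1.5-fold threshold. Pbx4 and Meis3 were not called, at -0.53 and 0.05. Of 12 related homeobox genes of the ParaHox, Evx, Meox, Gbx and Mnx families, 8 were tested, 5 were lower and 1, Gbx2, was higher. Among them Meox1, a somite gene, showed the largest fall, from between 354.3 and 387.7 CPM in Control to under 1 CPM in each KD-1 library. The lists share genes, so their counts are not separate. Cdx1, Cdx2, Cdx4 and Gbx2 were also counted as regulators, and Meox1 and Meox2 are also somite markers below.

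**Figure D5:**
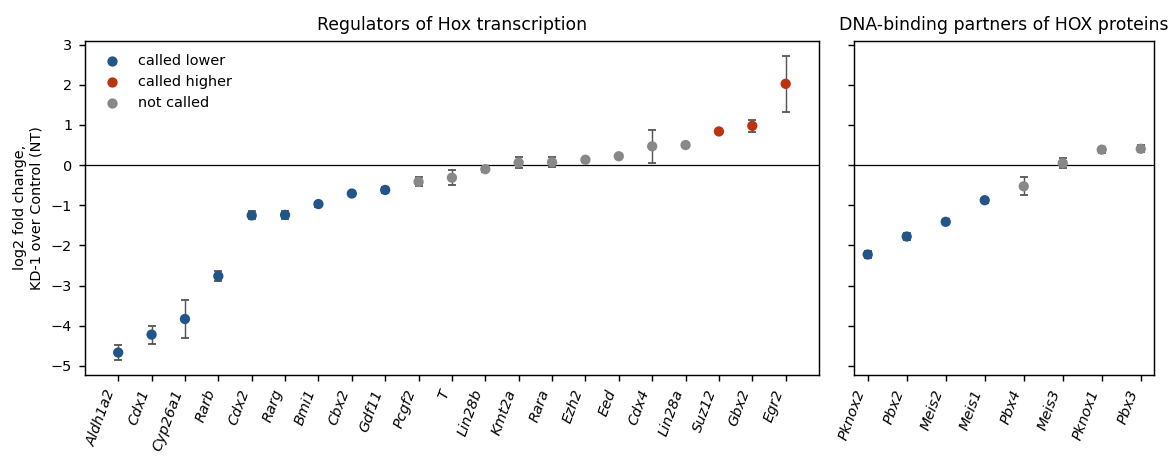
Log2 fold change of KD-1 over Control (NT) for 21 regulators of Hox genes (left) and 8 DNA-binding partners of HOX proteins (right), ordered by value, with bars for the standard error. Of the regulators 9 were called lower and 3 higher, and of the partners 4 were called lower.

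Genes around the clusters were examined to 300 kb on each side. Of 27 such genes 20 were tested, of which 5 were lower and 1 was higher in KD-1, with a median log2 fold change of -0.23, where 18.1% and 19.7% of all genes tested were called in these directions. The share of flanking genes called lower was near this background, and the share called higher, which is 1 gene, was below it. Beside cluster A, Skap2 was lower at -1.28. Beside cluster B, Calcoco2 was lower at -0.63, and beside cluster C, Calcoco1 and Zfp385a were lower at -0.64 and -0.89. Beside cluster D, Lnpk was higher at 0.69, and Gm28230, lower as given above, lies inside the cluster and shares exons with Hoxd3 and Hoxd4.

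Markers of cell types also differed between the groups, and their part in the Hox levels was not tested. Their counts stand beside 18.1% of all genes tested called lower and 19.7% called higher. Some markers were also counted in the lists above. Aldh1a2, Meox1 and Meox2 are among the somite markers, and T, Cdx1, Cdx2, Cdx4 and Cyp26a1 among the caudal epiblast markers. Of 10 somite markers all were lower, and their summed level went from between 571.1 and 656.6 CPM in Control to between 46.7 and 47.7 in KD-1. Of 12 naive pluripotency markers 10 were higher and none was called lower, with sums of 471.5 to 516.2 CPM in Control and 1491 to 1528 in KD-1. Of 10 neural markers 8 were tested and 6 were higher, from sums of 52.6 to 59.9 CPM to sums of 248.8 to 252.0.

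Of 12 markers of the caudal epiblast and neuromesodermal progenitors, 4 were higher and 4 lower, and their sum went from between 193.5 and 246.4 CPM to between 632.7 and 656.1. Among them Sox2, which is also a pluripotency and neural gene, went from between 99.5 and 136.1 CPM to between 521.3 and 548.0. Most of the rise of the sum was in Sox2. Of 9 markers of presomitic and paraxial mesoderm 7 were tested and 5 were lower, with sums of 51.7 to 63.9 CPM in Control and 40.6 to 42.1 in KD-1. Of 9 endoderm markers 5 were tested, 3 higher and 2 lower, with sums of 155.8 to 185.0 CPM and 336.6 to 341.0. Trh and Epcam were the highest of them, with Trh going from between 116.5 and 142.6 CPM to between 260.1 and 268.8. Most of the rise of this sum was in Trh. The 2 lower ones were Cer1 and Foxa1, which went from 14.6 ± 0.65 to 0.046 ± 0.046 CPM and from 0.808 ± 0.27 to 0.129 ± 0.05 (SD, n = 3), so that the sum and these genes had opposite directions. Sox17 and Foxa2 were not tested, with Sox17 at 4, 9 and 9 counts in Control and at 0, 0 and 1 in KD-1. Foxa2 was at 2, 1 and 1 counts in Control and at 6, 5 and 9 in KD-1. Of 9 heart and lateral mesoderm markers 3 were tested and all 3 were lower, with sums of 3.61 to 4.003 CPM and 0.787 to 1.29, and Gata4 was the highest of them. Of 7 fibroblast markers 4 were tested and 3 were lower, with sums of 8.34 to 9.15 CPM and 0.818 to 1.00, and Lum and Postn, at 1 to 30 counts in Control, were at 0 in KD-1. Msgn1, Shh, Hand1 and Nkx2-5 of these lists were at 4 counts or fewer in every library of both groups.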

How the data were processed

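Gene counts of 3 Control (NT) and 3 KD-1 libraries were analysed. The study prepared TruSeq libraries and, per the submitters' processing notes, used bcl2fastq and Salmon (version 1.1) with a Gencode gene model. The methods give its version number but not its species series or genome build. The authors deposited estimated counts (expected counts) per gene as whole numbers, without normalization. Whether strand was used is not stated, and Salmon divides reads of overlapping genes by probability. Column names gave the group but not the replicate number of the labels, so libraries are named by depth.

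Genes were named, located and measured for exon length with GENCODE vM39 on GRCm39, which matched 35222 of 35565 identifiers. edgeR (version 4.0.16, R 4.3.3) was run with filterByExpr (minimum count 10, minimum total 15; 15110 genes kept), TMM normalization, a robust quasi-likelihood fit (glmQLFit, glmQLFTest) on all 6 libraries with the group as its sole term. The p-values were adjusted by Benjamini-Hochberg across all tested genes. The 95% intervals use the degrees of freedom of that fit. Fold changes and levels come from TMM-normalized CPM. The fit was tested on simulated counts.

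The members and gene lists were chosen with earlier results of these data known. In each cluster, every library value is given for the 2 members highest per kb and for the largest called rise and fall. Flanking genes are named where called, and cell type markers where highest in their list. Other markers were named by a choice made after their values were seen. These were at 0 in a group, called against the direction of the list's sum (Cer1 and Foxa1), or not tested (Sox17 and Foxa2). The alternatives were DESeq2 (version 1.42.0), other normalizations, filters and thresholds, each library left out, and other lengths or members in the sums. Some genes of the lists are not reported here and were left out of their counts and sums. Columns left out because they matched no group numbered 0.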

Additional observations from a re-analysis of the deposited data

How the results depend on the processing

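No paired analysis was possible because the columns do not carry the replicate numbers of the labels. Under an absolute log2 fold change over 1, the members called lower went from 16 to 9, with 4 in cluster B, 0 in C and 3 in D, and those called higher went from 1 to 0, with 0 in cluster B. With no fold change threshold, 5 members of cluster A and 2 of cluster C were lower, and 5 members were higher, 1 in A, 2 in B and 2 in C. These thresholds moved the calls among all genes from 5704 to 3274 and to 9597. With at least 10 counts in every library, 3 members of cluster D were lower, since Hoxd1 and Hoxd10 were then not tested. Hoxc4 lost its call with library size as the only scaling (log2 fold change -0.57), which left 0 in cluster C. With each library left out in turn, 14 to 17 members were lower, and 0 or 1 in cluster C. The summed ratio of cluster C ranged from 0.993 to 1.08 over these 6 fits, below 1 only without the Control library of highest depth. That of cluster A was 0.817 with coding length and 0.821 without length scaling. Without Hoxb9, that of cluster B was 0.551, that of all members 0.696 and that of members numbered 9 to 13 went from 1.09 to 0.931. These values without Hoxb9 use exon length, and no other length was tried for them. The log2 fold change of Hoxa6 ranged from -0.0062 (without the Control library of lowest depth, the only fit with a negative sign) to 0.362 with a library left out. That of Hoxc9 ranged from -0.1232 to 0.0717 (without that of middle depth, the only positive one) and was 0.013 with library size alone. Why these values moved was not tested beyond what the settings themselves change. Levels near the detection limit, as for Hoxa13, Hoxb13, Hoxc11, Hoxc12 and Hoxd11 to Hoxd13, were not comparable at this depth.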
